A study of Mus musculus with 2 samples.

Results

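Collagens other than type IV, the lysyl oxidases that crosslink them and 5 further matrix genes (Tnc, Fn1, Postn, Dcn and Lum) were followed across groups of single nuclei from mouse liver with hepatocellular carcinoma (HCC). Members were the genes whose symbol begins with Col and a digit, without Col4a1 to Col4a6, plus Lox, Loxl1 to Loxl4 and the 5 genes above, where at least 20 unique molecular identifiers (UMIs) were counted in all. The rule matched 49 of 32285 genes, and 46 had enough UMIs. Just outside the minimum were Col9a1 with 9 UMIs and Col9a2 and Col2a1 with 3 each, and just inside were Col6a4 with 21 and Col22a1 with 34. Col4a3bp entered by its symbol alone, since it encodes a ceramide transfer protein and not a collagen.

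Nuclei came from frozen liver, from the microdissected residual area of mouse HCC, and were profiled with a 3′ droplet kit. Both samples (MRD-HCC 1 and 2) carry the same labels, which give no genotype, strain, age or treatment. A single matrix holds the counts and does not tie a barcode to a sample, so there are no replicates and no test between groups. Its 17169 barcodes carried 95130408 UMIs (median 2794, lowest 891, highest 125991), and 16411 barcodes passed the filters.

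Fibrillar collagens (types I, III, V and XI, with XXIV and XXVII) assemble into the banded fibres that thicken in a scarred liver. FACIT collagens such as types XII and XIV sit on the surface of these fibres, type VI forms beaded filaments beside them, and types XV and XVIII lie at basement membranes. Lysyl oxidases oxidise lysines of collagen and elastin so that chains crosslink, and decorin and lumican bind fibrils and limit their width. In liver, most of this matrix is known to come from stellate cells and portal fibroblasts, while hepatocytes secrete fibronectin into plasma.

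Nuclei were sorted into groups by lists of marker genes that hold no member. A nucleus passed a list when its markers exceeded free RNA, the RNA that droplets without a nucleus also hold, with at least 3 distinct markers seen. The stellate gate held 772 nuclei, the pericyte gate 165, the mesothelial gate 124 and the endothelial gate 858. Tumour nuclei were taken with 2 lists from earlier results of these data, led by Pkhd1 (2083 nuclei) and by Gpc3 and Ccnd3 (1524 nuclei), and the lists overlap, since 901 of the first and 588 of the second also passed the other list. Hepatocyte-gated nuclei numbered 1259 and served, with 121 macrophage-gated and 100 lymphocyte-gated nuclei, as types in which fibrillar collagen is not expected. A further 182 nuclei were left out as mixed and 8709, with a median of 1315 UMIs, passed no list.

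The stellate, mesothelial, endothelial and both tumour groups had all of their own markers above free RNA, with their intervals. Among pericyte markers, 11 of 12 were above it, and Cnn1 was not. Nuclei were gated by the excess of these same lists over free RNA. High own markers therefore follow largely from the gating and do not test the groups. The gate for fibroblasts (Dpt, Mfap4, Fbln1, Pi16 and 8 others) held 2 nuclei, too few to describe. In its place stands a group added after the data were seen: 485 nuclei in no other gate that passed a list of 10 genes led by Prrx1, Itgbl1 and Lama2. It is called the Itgbl1 set here and is given no cell type name. Of the 12 fibroblast markers, 8 were above free RNA in it, as were 7 of 12 pericyte and 6 of 10 stellate markers. In pericyte-gated nuclei 6 of the 12 fibroblast markers were above free RNA, and in mesothelial-gated nuclei 5. Fbln1 stood at 94.5 CPM in the Itgbl1 set (UMIs scaled to a common total per group) against 3.58 in free RNA, and Dpt at 28.3 against 4.14. Scara5 (65.6 against 106.5), Fbln2 (47.2 against 50.5) and Thy1 (2.10 against 3.43) were not above free RNA in the set. Of the set's own list, by which it was gated, 9 of 10 genes were above free RNA, and Twist1 was not. Levels of members in these cells were in view when the list was chosen, so its comparisons describe and support nothing. Its list was also passed by 82 of the pericyte-gated and 201 of the stellate-gated nuclei, so these 3 groups overlap by their markers. Exactly 3 markers had placed 108 of the stellate, 45 of the pericyte, 75 of the Itgbl1-set, 26 of the mesothelial, 762 of the Pkhd1-list and 648 of the Ccnd3-list nuclei.

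For each group, UMIs were summed over nuclei before scaling to CPM, with exact 95% intervals that cover counting error only. Summed over 43 members (all but Fn1, Col18a1 and Col4a3bp), the level was 7618 CPM in pericyte-gated nuclei, 7396 in the Itgbl1 set, 4763 in stellate-gated and 4376 in mesothelial-gated nuclei. Endothelial-gated nuclei held 703 CPM, Pkhd1-list nuclei 273, Ccnd3-list nuclei 339 and hepatocyte-gated nuclei 202. Free RNA held 780 CPM of the same genes. Macrophage-gated nuclei held 358 CPM, above both tumour groups, and lymphocyte-gated nuclei 683, close to the endothelial level. The pericyte, stellate and mesothelial gates and the Itgbl1 set thus lay above free RNA and the other 6 groups named here below it. Free RNA was estimated at 6.08% of UMIs in hepatocyte-gated nuclei to 23.6% in stellate-gated nuclei, so a level below that of pure free RNA can still exceed what free RNA brings to a group.

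**Figure D1:**
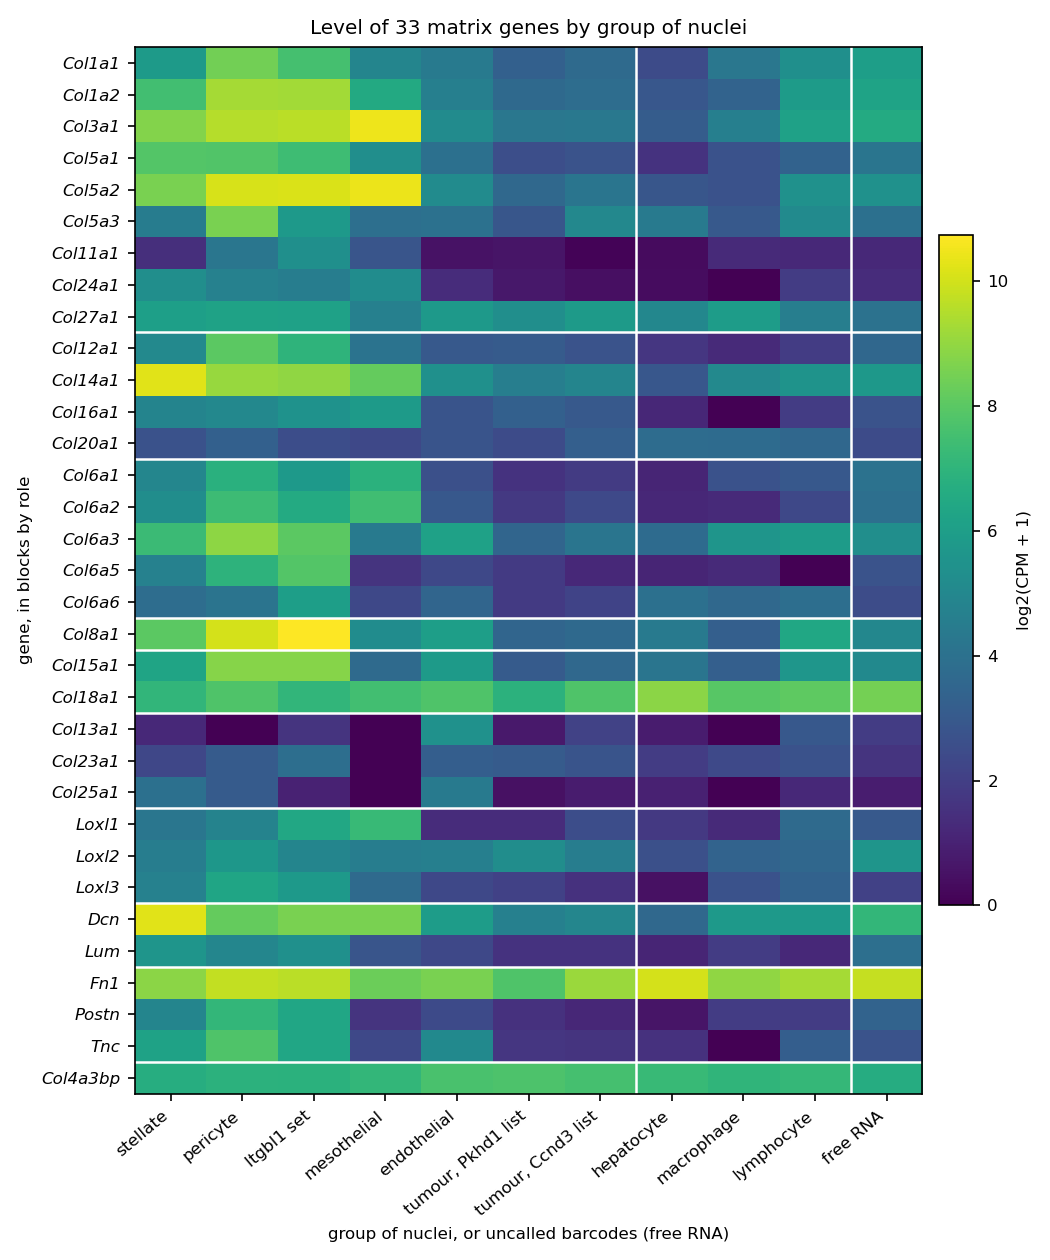
Level of the 33 members with at least 100 UMIs over the 7 groups, as log2(CPM + 1), with genes in blocks by role and groups in columns. Columns right of the first white line are hepatocyte-, macrophage- and lymphocyte-gated nuclei, and the last column is free RNA. Bright cells lie mostly in the 4 columns on the left, while Fn1, Col18a1 and Col4a3bp were bright in every column.

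With each nucleus thinned to 1500 UMIs, the median number of the 43 members with a UMI was 5 in pericyte-gated nuclei and in the Itgbl1 set, 3 in stellate- and mesothelial-gated nuclei, and 1 in endothelial-gated nuclei. Of stellate-gated nuclei, 1.37% (0.658% to 2.50%) held none of the 43. That share was 45.9% (42.4% to 49.5%) in endothelial-gated, 70.5% (68.5% to 72.5%) in Pkhd1-list and 75.6% (73.1% to 78%) in hepatocyte-gated nuclei. At least 3 members were seen in 89.9% of the Itgbl1 set and in 1.26% of Pkhd1-list nuclei, near the 1.23% of hepatocyte-gated nuclei. It was 4.70% in endothelial-gated, 0.901% in macrophage-gated and 6.82% in lymphocyte-gated nuclei. At this depth, at least 1 of the 43 members was seen in nearly all stellate-gated nuclei. The share with none was 0.625% in pericyte-gated nuclei, 0.860% in the Itgbl1 set and 5.98% in mesothelial-gated nuclei. The pooled count does not show how a single member was spread. Some were seen in a minority of a group's nuclei, as given below for Col5a3 and Col8a1.

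**Figure D2:**
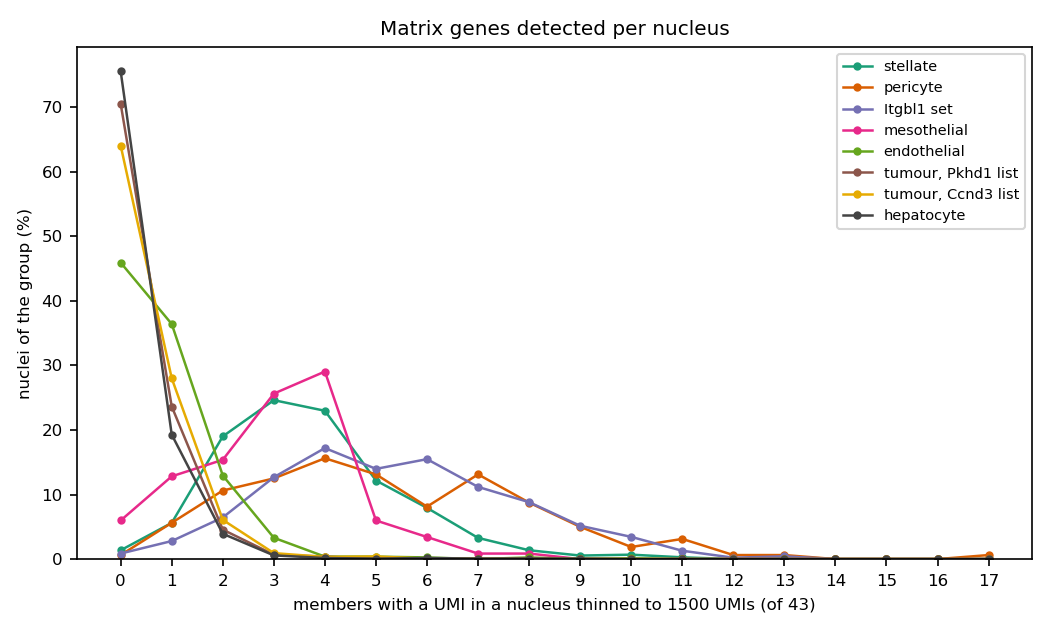
Number of the 43 members with a UMI in a nucleus thinned to 1500 UMIs (horizontal axis) against the share of the group's nuclei in percent. Hepatocyte-gated, tumour and endothelial-gated nuclei peak at 0, and stellate-, pericyte- and mesothelial-gated nuclei and the Itgbl1 set peak at 3 or 4.

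Each member was assigned to the group with its highest level. Over the 6 gates, 21 of 46 were highest in pericyte-gated nuclei, where 16.2% of all genes were highest. The mesothelial gate held 9 (20.7% of all genes), the stellate and the endothelial gates 7 each (10.9% and 16.4%), the Pkhd1-list nuclei 2 (18.3%) and the Ccnd3-list nuclei 0 (17.5%). With the Itgbl1 set included, it was highest for 10 members (10.3% of all genes) and the pericyte gate for 15 (13.8%). The mesothelial gate then led for 8 (19.4%), the stellate gate for 6 (8.69%), the endothelial gate for 5 (14.8%), the Pkhd1 list for 2 (17.1%) and the Ccnd3 list for 0 (15.9%). The interval of the ratio between highest and second group excluded 1 for 21 of 46 members, so the leading group was not separated from the next for the other 25.

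Different members led in different groups, and promoters of 5 such genes are printed to show the sequence beside the pattern. Col1a2 was as high in pericyte-gated nuclei as in the Itgbl1 set, Col3a1 was highest in mesothelial-gated nuclei, Col5a3 in pericyte-gated nuclei, Col8a1 in the Itgbl1 set and Col13a1 in endothelial-gated nuclei. Each stretch is the 150 bases before the RefSeq gene start (GRCm38.p6), read 5′ to 3′ on the gene's strand. GENCODE vM21 starts Col1a2 at base 4504814 of chromosome 6, so by that annotation its printed stretch lies inside the gene. Capitals mark CCAAT, which on the other strand reads ATTGG. They also mark the TATAAA box, whose reverse complement is TTTATA, and the GGGCGG box, whose reverse complement is CCGCCC. The stretches lie, in the order printed, at chr6:4505468-4505617 (plus strand), chr1:45311388-45311537 (plus), chr9:20815068-20815217 (minus), chr16:57754738-57754887 (minus) and chr10:61979109-61979258 (minus).
Col1a2: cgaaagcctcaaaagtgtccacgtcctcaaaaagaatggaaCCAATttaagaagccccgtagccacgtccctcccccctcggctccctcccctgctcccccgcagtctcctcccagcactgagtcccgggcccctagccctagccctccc
Col3a1: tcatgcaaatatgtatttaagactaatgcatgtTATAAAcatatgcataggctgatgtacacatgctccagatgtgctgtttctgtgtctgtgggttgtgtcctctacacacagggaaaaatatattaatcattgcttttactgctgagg
Col5a3: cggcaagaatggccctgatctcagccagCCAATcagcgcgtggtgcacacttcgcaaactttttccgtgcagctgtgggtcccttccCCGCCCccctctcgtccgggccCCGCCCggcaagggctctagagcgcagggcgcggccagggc
Col8a1: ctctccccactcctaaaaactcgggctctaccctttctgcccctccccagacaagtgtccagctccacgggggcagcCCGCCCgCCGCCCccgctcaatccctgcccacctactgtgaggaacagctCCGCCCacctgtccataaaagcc
Col13a1: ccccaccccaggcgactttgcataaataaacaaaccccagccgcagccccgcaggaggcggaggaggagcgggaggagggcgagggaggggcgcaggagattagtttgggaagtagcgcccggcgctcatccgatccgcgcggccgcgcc
The RefSeq table held a promoter for 31 of the 46 members. In the 250 bases before the start, CCAAT on either strand was found in 9 of 31 (29.03%, against 37.5% of all 27025 promoters), TATAAA in 7 (22.58%, against 14.3%) and GGGCGG in 19 (61.29%, against 35.4%). Each motif was counted on its own where matches overlapped, and a match describes letters only.

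Fibrillar collagens came first by role, and 10 were measured. The chains of type I, the main fibre of scar, were highest in pericyte-gated nuclei. Col1a1 (chr11:94936224-94953042, mm10) stood at 351 CPM (308 to 399) there, 188 (169 to 209) in the Itgbl1 set, 56.2 (47.9 to 65.5) in stellate-gated and 28.3 (15.5 to 47.5) in mesothelial-gated nuclei. Its level was 19.9 (15.9 to 24.5) in endothelial-gated, 8.92 (7.58 to 10.4) in Pkhd1-list, 12.1 (10.2 to 14.3) in Ccnd3-list and 4.45 (3.64 to 5.38) in hepatocyte-gated nuclei, against 63.7 in free RNA. The pericyte gate and the Itgbl1 set stood above the level of pure free RNA. In stellate-gated nuclei the estimated free-RNA share would give 15.1 CPM, so the measured level was 3.73 times that. The same ratio was 4.97 in lymphocyte-gated and 1.78 in macrophage-gated nuclei, where fibrillar collagen is not expected. It therefore does not set stellate-gated nuclei apart from both of these types. Col1a2, the other chain, was 631 (572 to 694) in pericyte-gated nuclei and 613 (578 to 649) in the Itgbl1 set, which overlap, and 180 (165 to 196) in stellate-gated nuclei.

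Type III, the reticular fibre, and type V, which sets the width of type I fibrils, followed another order. Col3a1 was 1418 CPM (1315 to 1527) in mesothelial-gated nuclei, 796 (757 to 837) in the Itgbl1 set, 745 (681 to 813) in pericyte-gated and 425 (401 to 449) in stellate-gated nuclei. Col5a2, its neighbour 24615 bases away on chromosome 1 on the opposite strand, was 1384 (1282 to 1491), 1103 (1057 to 1151), 1070 (994 to 1151) and 384 (361 to 407) in the same 4 groups. Both genes of the pair were thus highest in mesothelial-gated nuclei, with the same order of groups. Of thinned mesothelial-gated nuclei, 64.1% (54.7% to 72.8%) had a Col3a1 UMI, and 2.04% (1.33% to 3.0%) of hepatocyte-gated nuclei did (78.2% and 9.93% unthinned). Col5a1 was highest in stellate-gated nuclei at 233 (215 to 251), not separated from pericyte-gated nuclei at 227 (192 to 265).

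Col5a3, a rarer chain of type V, separated the pericyte gate most clearly. It stood at 382 CPM (337 to 432) there, 55.1 (45.1 to 66.7) in the Itgbl1 set, 21.5 (16.5 to 27.6) in stellate-gated and 14.1 (5.69 to 29.1) in mesothelial-gated nuclei, against 14.4 in free RNA. A Col5a3 UMI was seen in 36.2% (28.8% to 44.2%) of thinned pericyte-gated nuclei and 2.60% (1.57% to 4.03%) of stellate-gated nuclei (55.2% and 6.61% unthinned). Col11a1, a minor fibrillar chain, was 39.9 (31.4 to 49.9) in the Itgbl1 set, 17.8 (9.18 to 31.0) in pericyte-gated and 1.73 (0.563 to 4.05) in stellate-gated nuclei. Col24a1, another minor chain, was 38.8 (32.0 to 46.7) in stellate-gated and 36.4 (21.6 to 57.5) in mesothelial-gated nuclei. It was 25.2 in pericyte-gated nuclei and 22.6 in the Itgbl1 set, and at or below 1.58 in the endothelial, tumour and hepatocyte groups. Col27a1 lay between 24.2 and 72.5 in all 7 groups and at 30.0 in hepatocyte-gated nuclei, above the 15.4 of free RNA throughout. Col11a2 had at most 2.96 CPM in any of them.

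Of the 7 FACIT collagens, only Col14a1, highest in stellate-gated nuclei, and Col12a1, highest in pericyte-gated nuclei, were separated from the next group. Col14a1 was 1227 CPM (1186 to 1268) in stellate-gated nuclei, 536 (482 to 594) in pericyte-gated nuclei, 495 (464 to 528) in the Itgbl1 set and 293 (247 to 345) in mesothelial-gated nuclei, against 52.4 in free RNA. Col12a1 ran the other way, with 261 (224 to 302) in pericyte-gated nuclei, 124 (109 to 141) in the Itgbl1 set and 32.6 (26.3 to 39.9) in stellate-gated nuclei. Col16a1 stood between 27.4 and 56.6 in stellate-, pericyte- and mesothelial-gated nuclei and the Itgbl1 set, and its highest group was not separated from the next. Col20a1 lay between 4.04 and 8.88 in the 7 groups and at 12.8 (11.4 to 14.3) in hepatocyte-gated nuclei, and it shares its strand with an overlapping gene, as do Col24a1 and Col26a1. Col9a3, Col19a1 and Col22a1 had at most 3.20 CPM in any of the 7 groups.

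Type VI chains fell into those highest in pericyte- and mesothelial-gated nuclei and those highest in the Itgbl1 set. Col6a1 was 115 CPM (87.2 to 149) in mesothelial-gated, 113 (88.7 to 141) in pericyte-gated, 55.6 (45.6 to 67.3) in Itgbl1-set and 29.8 (23.9 to 36.8) in stellate-gated nuclei. Col6a2, which lies next to it on chromosome 10, was 174 (139 to 215), 164 (135 to 198), 94.5 (81.2 to 109) and 37.1 (30.4 to 44.8) in that order. The third chain, Col6a3, did not follow them in mesothelial-gated nuclei: it was 20.2 (9.69 to 37.2) there, 483 (432 to 538) in pericyte-gated, 261 (239 to 285) in Itgbl1-set and 160 (146 to 175) in stellate-gated nuclei. Col6a5 and Col6a6, chains that can take its place, were highest in the Itgbl1 set, at 233 (211 to 255) and 64.0 (53.2 to 76.5). Col6a5 had 1 UMI and Col6a6 2 UMIs in mesothelial-gated nuclei. In mesothelial-gated nuclei, Col6a1 and Col6a2 were thus above the level of pure free RNA, and Col6a3 was below its 38.6 CPM. Col6a4, Col6a5 and Col6a6 had too few UMIs there to be placed above or below free RNA.

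Col8a1 encodes a short-chain collagen of vessel walls and was 1704 CPM (1646 to 1764) in the Itgbl1 set, 1041 (965 to 1121) in pericyte-gated, 262 (243 to 281) in stellate-gated and 36.4 (21.6 to 57.5) in mesothelial-gated nuclei. After thinning, 50.3% (45.7% to 55.0%) of the Itgbl1 set, 35% (27.6% to 42.9%) of pericyte-gated and 8.76% (6.81% to 11%) of stellate-gated nuclei had a Col8a1 UMI, against 2.86% (2.00% to 3.95%) of hepatocyte-gated nuclei (56.7%, 44.8%, 11.9% and 8.10% unthinned). It was also seen in 9 of 88 thinned lymphocyte-gated nuclei, at 83.0 CPM against 30.2 in free RNA. Col15a1, of the basement membrane zone, was 436 (407 to 466) in the Itgbl1 set and 435 (387 to 488) in pericyte-gated nuclei, against 75.3 (65.6 to 86.0) in stellate-gated nuclei. Col18a1, whose C-terminal piece is endostatin, was highest outside the 7 groups, at 470 (462 to 479) in hepatocyte-gated nuclei, and among the 7 ran from 117 (112 to 122) in Pkhd1-list to 221 (208 to 236) in endothelial-gated nuclei.

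Among transmembrane collagens, Col13a1 was 42.5 CPM (36.6 to 49.0) in endothelial-gated nuclei, 3.34 (2.37 to 4.56) in Ccnd3-list nuclei, and 2.10 or less in the other 5 groups, with 0 UMIs in pericyte- and mesothelial-gated nuclei, where 3 counts would be 4.44 and 6.06 CPM. It had a UMI in 46 of 788 thinned endothelial-gated nuclei, or 5.84% (4.31% to 7.71%), and in 0.163% of hepatocyte-gated nuclei (12% and 0.953% unthinned). Col25a1 was 20.1 (16.2 to 24.7) in endothelial-gated and 14.6 (10.5 to 19.7) in stellate-gated nuclei, and 1.05 (0.127 to 3.79) in the Itgbl1 set. Both were thus borne by endothelial-gated nuclei, Col25a1 by stellate-gated nuclei as well. Col28a1, a collagen with von Willebrand factor domains, was 13.1 (9.95 to 16.9) in endothelial-gated nuclei and at most 4.44 in the other groups. Col23a1 was 13.6 (8.91 to 20) in the Itgbl1 set and between 3.82 and 8.13 in 5 of the other groups, with 0 UMIs in mesothelial-gated nuclei. Of the scarce collagens, Col10a1 reached 13.3 (6.09 to 25.3) in pericyte-gated nuclei, Col8a2 12.6 (8.07 to 18.7) and Col7a1 6.30 (3.25 to 11) in the Itgbl1 set, and Col6a4, Col17a1 and Col26a1 stayed at or below 2.77. Col4a3bp, the gene that is no collagen, ran from 101 in stellate-gated to 211 in Pkhd1-list nuclei.

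Lysyl oxidases were low but ordered. Loxl1, which is known for elastic fibres, was 152 CPM (119 to 190) in mesothelial-gated nuclei, 85.6 (72.9 to 99.7) in the Itgbl1 set, 26.7 (15.8 to 42.1) in pericyte-gated and 17.3 (12.9 to 22.9) in stellate-gated nuclei, against 6.88 in free RNA. Lox was 18.9 (13.2 to 26.2) in the Itgbl1 set, 18.2 (8.31 to 34.5) in mesothelial-gated and 3.47 (1.66 to 6.38) in stellate-gated nuclei. Loxl3 was 78.5 (58.8 to 103) in pericyte-gated nuclei, 53.0 (43.2 to 64.4) in the Itgbl1 set and 25.7 (20.2 to 32.2) in stellate-gated nuclei. Loxl2 was the exception: it was 37.0 (34.2 to 39.9) in Pkhd1-list nuclei, not separated from the 50.3 (34.9 to 70.3) of pericyte-gated nuclei, and no group stood clear of the 47.3 of free RNA. Loxl4 stayed at or below 2.96.

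The proteoglycan decorin, Dcn, was 1213 CPM (1173 to 1254) in stellate-gated nuclei, 386 (358 to 415) in the Itgbl1 set, 380 (327 to 438) in mesothelial-gated and 290 (251 to 334) in pericyte-gated nuclei. Lum, which lies 46985 bases from it on the same strand of chromosome 10, was 47.2 (39.6 to 55.8), 40.9 (32.4 to 51.1), 6.06 (1.25 to 17.7) and 29.6 (18.1 to 45.7) in that order. Stellate-gated nuclei led for both, but only for Dcn by a clear margin. Tnc and Postn, glycoproteins of remodelled tissue, were highest in pericyte-gated nuclei, at 219 (185 to 257) and 138 (111 to 169), against 70.8 (61.4 to 81.2) and 28.8 (22.9 to 35.7) in stellate-gated nuclei. Fn1 was 1067 (1054 to 1080) in hepatocyte-gated nuclei, 869 (800 to 942) in pericyte-gated, 786 (746 to 827) in Itgbl1-set and 473 (448 to 499) in stellate-gated nuclei, against 888 in free RNA. The level that the free-RNA share would give was exceeded 19.8-fold in hepatocyte-gated, 5.01-fold in pericyte-gated, 4.76-fold in Ccnd3-list and 4.14-fold in Itgbl1-set nuclei. In stellate-, mesothelial- and endothelial-gated and Pkhd1-list nuclei the excess was 1.77- to 2.28-fold. It was 5.67-fold in lymphocyte-gated and 3.44-fold in macrophage-gated nuclei, so only the hepatocyte gate stood above both of these.

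**Figure D3:**
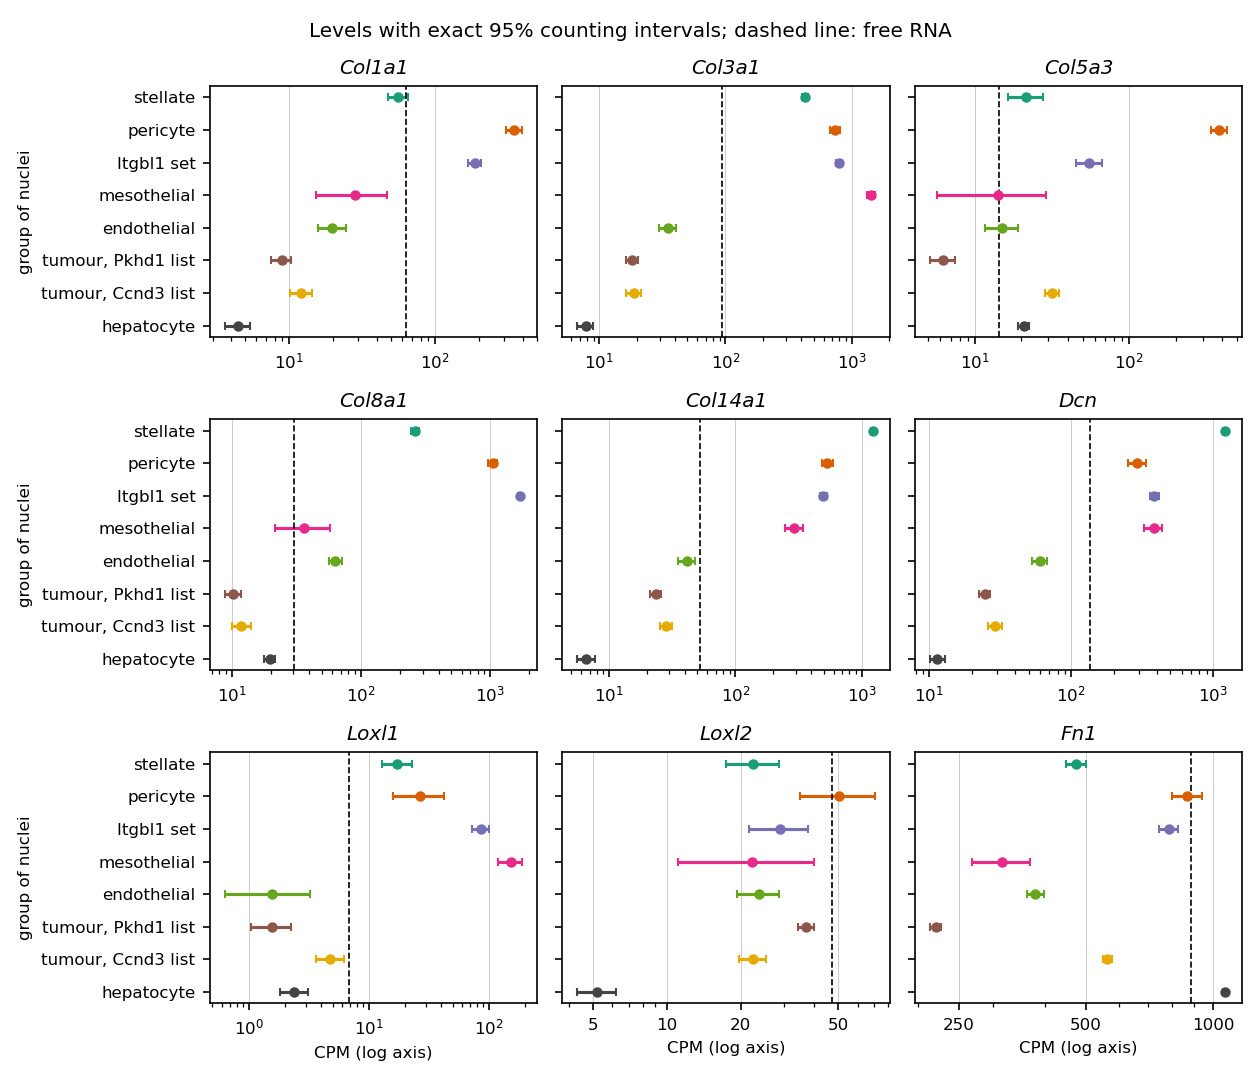
Level in CPM (log axis) of 9 members in 8 groups of nuclei, with exact 95% counting intervals, and free RNA as a dashed line. Dcn and Col14a1 lie farthest right in stellate-gated nuclei, Col1a1 and Col5a3 in pericyte-gated nuclei, Col8a1 in the Itgbl1 set, Col3a1 and Loxl1 in mesothelial-gated nuclei and Fn1 in hepatocyte-gated nuclei.

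Pairs of groups were then compared gene by gene, and a gene counted as higher or lower when the log2 ratio, with 1 CPM added to each side, was at least 1 in size and the interval of the fold excluded 1. In pericyte-gated against stellate-gated nuclei, 18 of 46 members were higher and 2 lower, against 4.78% and 3.25% of 19683 genes. The 18 comprised 5 fibrillar collagens, 4 type VI chains, 3 lysyl oxidases, Tnc, Postn and 4 others. Col5a3 was 17.8-fold higher (13.4 to 23.8), Col12a1 7.99-fold (6.19 to 10.4), Col1a1 6.24-fold (5.09 to 7.67) and Col15a1 5.78-fold (4.84 to 6.92). The 2 that were lower were Dcn, by 4.18-fold (3.62 to 4.85), and Col14a1, by 2.29-fold (2.05 to 2.56). The median log2 ratio was 0.84 over members and 0 over all genes. Col9a3, Col8a2, Col26a1 and Col13a1 had 0 UMIs in pericyte-gated nuclei and at most 2.77 CPM in stellate-gated nuclei. That lay below the 4.44 CPM that 3 counts mean in pericyte-gated nuclei. No bound can be set for these genes, and their ratios follow from the 1 CPM added. Some pericyte-gated nuclei carried Itgbl1-list genes, and without such nuclei in either gate 13 members were higher. Stellate markers summed to 619 CPM in pericyte-gated nuclei and to 6638 in stellate-gated nuclei, and pericyte markers to 4421 and 1369.

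The Itgbl1 set against the same stellate-gated nuclei gave 18 members higher and 4 lower, against 5.06% and 2.6% of all genes. Col11a1 was 23.0-fold higher (9.44 to 72.9, on 5 UMIs in stellate-gated nuclei), Col6a5 9.31-fold (7.24 to 12.1), Col8a1 6.52-fold (6.02 to 7.06), Lox 5.45-fold (2.65 to 12.3) and Loxl1 4.93-fold (3.57 to 6.92). Lower were Dcn by 3.14-fold (2.90 to 3.41), Col14a1 by 2.48-fold (2.30 to 2.66), Col25a1 by 13.9-fold (3.61 to 118, on 2 UMIs) and Col26a1, which had 0 UMIs against 8 and was at least 1.76-fold lower against a floor of 3 counts. This comparison shares its stellate-gated nuclei with the one before. The median was 0.72 over members and 0.01 over all genes.

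Set directly against pericyte-gated nuclei, the Itgbl1 set had 4 members higher and 6 lower, against 3% and 3.02% of all genes. Loxl1 was 3.21-fold higher (1.97 to 5.55), Col6a6 3.93-fold (2.12 to 8.08), Col11a1 2.25-fold (1.21 to 4.54) and Col8a2, with 24 UMIs against 0, at least 2.84-fold. Col5a3 was 6.93-fold lower (5.50 to 8.78), Tnc 2.73-fold (2.16 to 3.44), Col12a1 2.10-fold (1.72 to 2.57) and Col6a1 2.02-fold (1.49 to 2.74), with Col10a1 and Col25a1 lower on 8 and 2 UMIs. The median of −0.04 lay near the 0.02 of all genes. Without the pericyte nuclei that passed both lists, 8 members were higher and 3 lower.

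Mesothelial-gated nuclei, from the sheet that covers the liver, had 1 member higher and 19 lower than the Itgbl1 set, against 5.63% and 6.12% of all genes. Col6a1 was 2.07-fold higher (1.47 to 2.88), a call that ended under TMM scaling and with 10 CPM added. Col8a1 was 46.9-fold lower (29.6 to 79.2), Col15a1 35.9-fold (16.4 to 98.2), Col6a3 12.9-fold (6.98 to 27.2), Col1a2 6.74-fold (5.01 to 9.30) and Col1a1 6.66-fold (3.92 to 12.3). Some genes ran against this, since Col3a1 was 1.78-fold and Loxl1 1.77-fold higher in mesothelial-gated nuclei, under the 2-fold limit. The median was −1.41 over members and 0 over all genes. Ratios of members with 0 UMIs in mesothelial-gated nuclei follow from the 1 CPM added. For Col9a3, Col28a1, Col10a1 and Col13a1, the Itgbl1-set level lay below that of 3 counts in mesothelial-gated nuclei, so no bound can be set. At 124 nuclei, a low level in mesothelial-gated nuclei could not be measured below 6.06 CPM, the level of 3 counts.

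**Figure D4:**
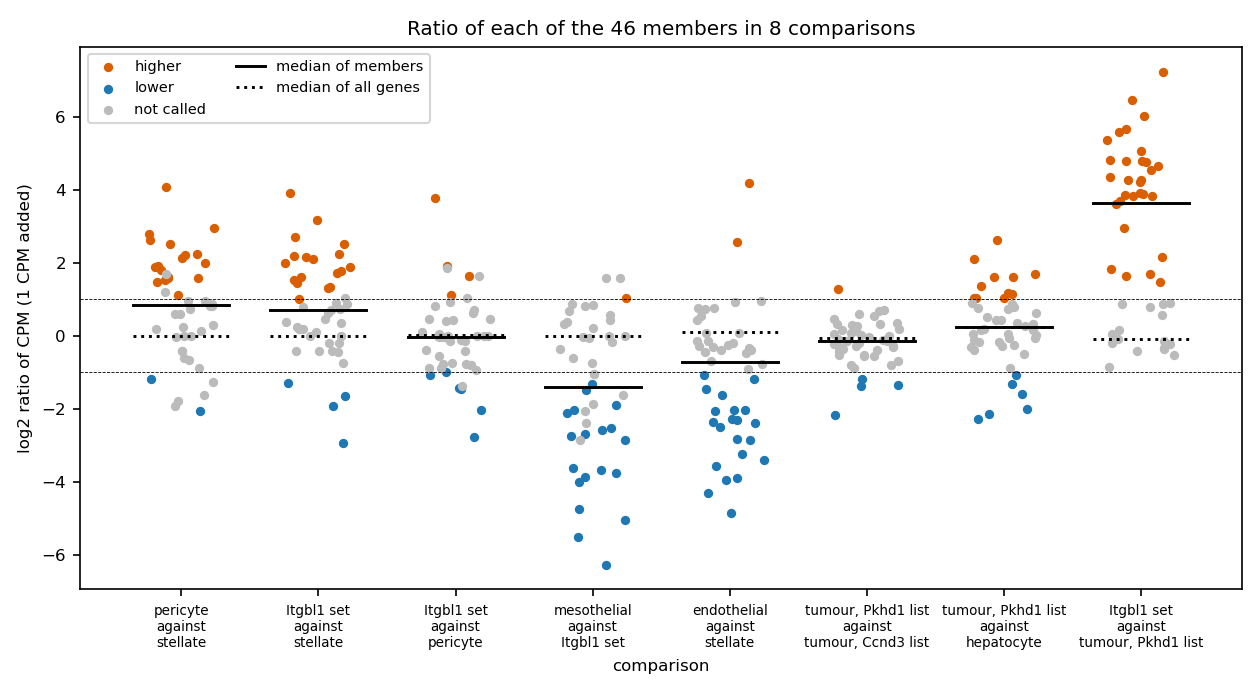
Log2 ratio of each of the 46 members in 8 comparisons, with members counted as higher in orange, as lower in blue and others in grey, the median of members as a solid line and that of all genes as a dotted line. Members without UMIs in one group are placed by the 1 CPM added to each side. Pericyte-gated and Itgbl1-set nuclei have more orange than blue points against stellate-gated nuclei, and endothelial- and mesothelial-gated nuclei more blue than orange.

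Endothelial-gated nuclei had 2 members higher and 21 lower than stellate-gated nuclei, against 8.24% and 6.36% of all genes. Col13a1 was 30.6-fold higher (11.8 to 114) and Col28a1 9.45-fold (3.50 to 35.8), each on 4 UMIs in stellate-gated nuclei. Col14a1 was 29.8-fold lower (25.7 to 34.8), Dcn 20.2-fold (17.8 to 22.9), Col5a1 15.8-fold (12.3 to 20.8) and Col3a1 12.2-fold (10.3 to 14.5). The median was −0.72 over members and 0.10 over all genes. Col15a1, at 56.9 CPM (50.1 to 64.4), Col8a1, at 63.5 (56.3 to 71.4), Col6a3, at 69.6 (62.0 to 77.8), and Tnc, at 33.2 (28.1 to 39.0), nonetheless stood above free RNA in endothelial-gated nuclei. Pericyte markers summed to 485 CPM there against 189 in free RNA, with 4 of 12 above free RNA and 1 at 0, and their part in these 4 levels was not tested. Lymphocyte-gated nuclei held 49.0 CPM of Col15a1, 83.0 of Col8a1, 58.5 of Col6a3 and 8.16 of Tnc. In them, the first 3 exceeded the level that the free-RNA share would give by 11.7-, 22.1- and 12.2-fold. In endothelial-gated nuclei the same ratios were 9.09, 11.2 and 9.65. Only for Tnc was the endothelial ratio the higher, at 31.2 against 11.5.

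Most members lay below free RNA in tumour nuclei. Against free RNA, 7 members were higher and 30 lower in Pkhd1-list nuclei, and 6 higher and 26 lower in Ccnd3-list nuclei, by intervals that exclude 1. In hepatocyte-gated nuclei 8 were higher and 27 lower, in macrophage-gated nuclei 4 and 18, and in lymphocyte-gated nuclei 8 and 10. The counts thus do not set tumour nuclei apart from hepatocyte-gated nuclei. Shares over all genes were not computed for this contrast, so the counts have no background. Free RNA was estimated to make up at most 11.5% of UMIs in Pkhd1-list nuclei, which would give Col1a1 7.32 CPM of the 8.92 measured, Col3a1 10.8 of 18.3 and Dcn 15.7 of 24.5. By contrast it would give Col27a1 1.77 of 38.3, Loxl2 5.44 of 37.0, Col23a1 0.233 of 7.46 and Col16a1 0.651 of 8.80. The ratio of the measured level to the level free RNA would give was 21.7 for Col27a1, 32.0 for Col23a1, 13.5 for Col16a1 and 6.81 for Loxl2, against 1.22 for Col1a1 and 1.69 for Col3a1. It was also high for Col4a3bp (18.4) and for members under 4 CPM, such as Col9a3 (35.9), Col7a1 (29.7) and Loxl3 (8.64). In hepatocyte-gated nuclei it was 32.1 for Col27a1 and 22.5 for Col23a1, so neither was high in tumour nuclei alone. Of the 2083 Pkhd1-list nuclei, 24 also passed the Itgbl1 list, 15 the stellate list and 2 the pericyte list, and Scrublet called 94. Their part in the levels of the mesenchymal collagens was not tested.

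**Figure D5:**
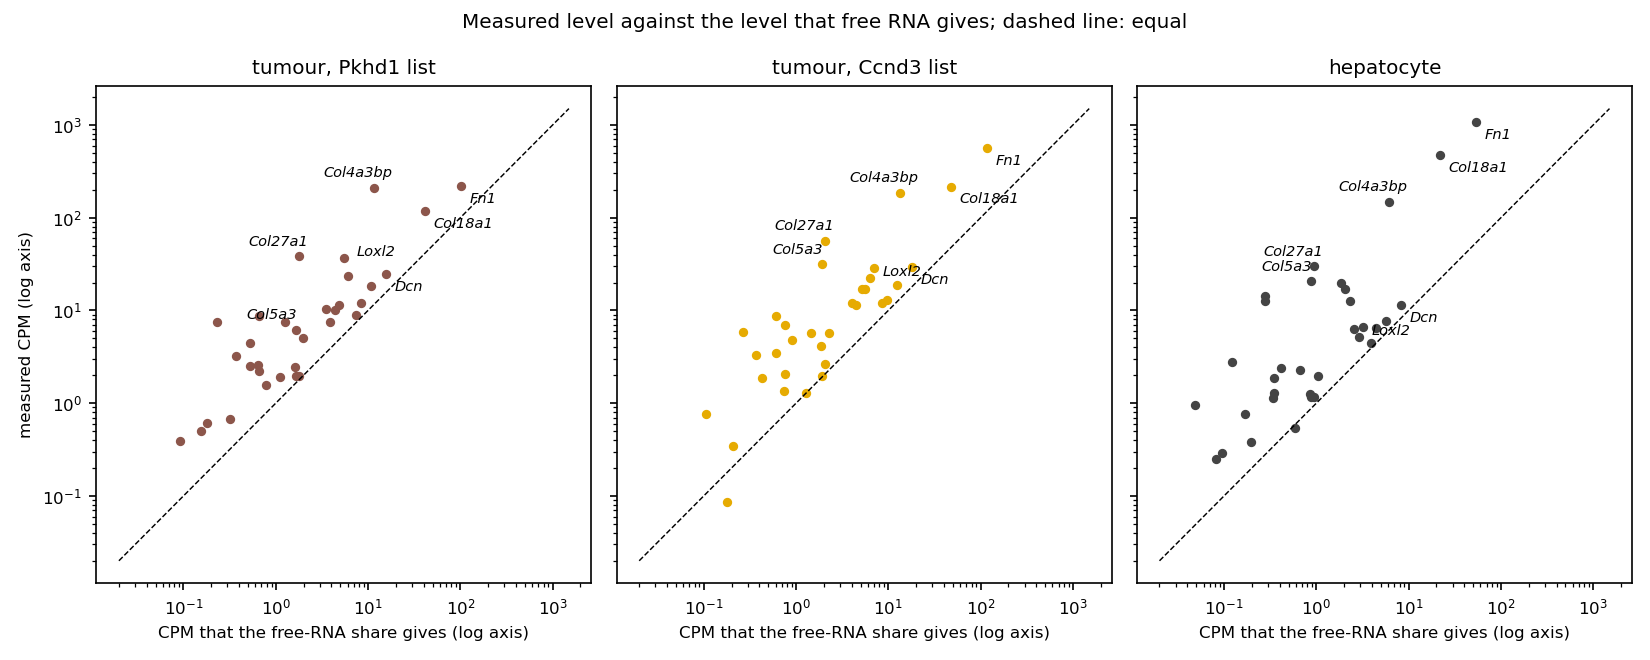
Measured CPM of the 33 members (vertical, log axis) against the CPM that the estimated free-RNA share of the group would give (horizontal, log axis), in both tumour groups and in hepatocyte-gated nuclei. Points on the dashed line are equal, Dcn lies near it in all 3 panels, and Col27a1 and Col4a3bp lie well above it.

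Between the tumour groups, 1 member was higher and 4 lower in Pkhd1-list nuclei, against 1.38% and 3.24% of all genes. Col5a3 was 5.07-fold lower (4.09 to 6.33), at 6.22 CPM (5.12 to 7.50) against 31.6 (28.4 to 35). Fn1 was 2.56-fold lower (2.46 to 2.66), at 220 (213 to 227) against 561 (548 to 575). Col13a1 was 4.96-fold lower (2.54 to 10.4) and Loxl1 3.05-fold lower (1.91 to 4.99), both at under 5 CPM in each group, and Col7a1, of anchoring fibrils, was higher on 29 UMIs against 1 (19.0-fold, 3.15 to 776). The call of Col7a1 was lost with free RNA taken from barcodes of 1 to 100 UMIs, at a gate threshold of 0.01 and with 10 CPM added, and with 10 CPM added those of Col13a1 and Loxl1 were lost too. After thinning, 4.89% (3.86% to 6.10%) of Ccnd3-list nuclei had a Col5a3 UMI and 0.777% (0.445% to 1.26%) of Pkhd1-list nuclei (16.3% and 3.98% unthinned). The median was −0.15 over members and −0.05 over all genes.

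Against hepatocyte-gated nuclei, which were deeper at a median of 17050 UMIs against 7086, Pkhd1-list nuclei had 11 members higher and 6 lower, against 18.8% and 10.1% of all genes, with a median of 0.23 over members and 0.24 over all genes. The members' share of calls was close to that of all genes. Scaled instead by TMM factors from edgeR, which shift the median of all genes from 0.24 to 0.02, 6 were higher and 7 lower. Col3a1, Col5a1, Col7a1, Col23a1 and Dcn were no longer higher and Col8a1 became lower. With 10 CPM added to each side in place of 1, only Loxl2 and Col14a1 were higher and only Fn1 and Col18a1 lower. Loxl2 was 7.11-fold higher (5.86 to 8.68) and, like Col14a1, was called under all 3 of these settings. None of the 3 takes out free RNA, whose share was 11.5% in Pkhd1-list and 6.08% in hepatocyte-gated nuclei. Col14a1 stood at 23.4 CPM in Pkhd1-list and 6.59 in hepatocyte-gated nuclei, below the 52.4 of free RNA. The Pkhd1-list level was 3.88 times what the free-RNA share would give, beside 3.84 in macrophage-gated and 6.88 in lymphocyte-gated nuclei. Called under both scalings, but not with 10 CPM added, were Col16a1, 6.76-fold (4.58 to 10.3), and Loxl3 and Col9a3, 8.46-fold each (4.16 to 19.4, on 9 UMIs in hepatocyte-gated nuclei). So was Col12a1, at 7.46 CPM against 2.27. Lower under all 3 were Fn1 by 4.86-fold (4.70 to 5.02) and Col18a1 by 4.01-fold (3.83 to 4.2). Lower except with 10 CPM added were Col6a6 by 5.73-fold (4.19 to 8.0) and Col5a3 by 3.33-fold (2.71 to 4.13). Col15a1 (7.57 CPM against 17.1) and Col20a1 (4.49 against 12.8) were also lower except with 10 CPM added. Thinned, 5.78% (4.81% to 6.87%) of Pkhd1-list nuclei had a Loxl2 UMI against 0.980% (0.508% to 1.71%) of hepatocyte-gated nuclei (22.4% and 6.12% unthinned).

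The Itgbl1 set against Pkhd1-list nuclei had 30 members higher and 0 lower, against 13% and 10.2% of all genes. Col8a1 was 165-fold higher (142 to 193), Col5a2 96.5-fold (83.5 to 112), Col1a2 51.6-fold (44.5 to 60.0) and Col3a1 43.6-fold (38.6 to 49.2), while Fn1 was 3.58-fold higher (3.37 to 3.80). The median was 3.65 over members and −0.08 over all genes. Loxl2, at 28.9 CPM (21.7 to 37.6) against 37.0 (34.2 to 39.9), and Col27a1, at 70.3 against 38.3, were not among the 30.

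Genes of the same pathway were counted by 7 lists, which were chosen with earlier results of the data known. In the Itgbl1 set against stellate-gated nuclei, 3 of 17 genes of collagen folding and hydroxylation were higher and 0 lower, namely Plod2 (2.91-fold, 2.45 to 3.47), P4ha3 (3.03-fold, 1.29 to 7.65) and Fkbp10 (2.24-fold, 1.34 to 3.80). Plod2 and P4ha3 encode a lysyl and a prolyl hydroxylase of collagen, and their list's median log2 ratio was 0.29. Of 8 genes of procollagen cleavage, 0 were higher, and Adamts14, which removes the N-terminal propeptide, was 4.05-fold lower (2.95 to 5.69). Of the 3 other crosslinkers, Pxdn was 2.05-fold lower (1.59 to 2.66). Among 12 elastic fibre genes 4 were higher and 2 lower, with Fbn2, a fibrillin, 13.4-fold higher (9.05 to 20.6) and Efemp1 5.51-fold lower (3.98 to 7.82).

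Proteoglycans and matricellular genes had 9 of 21 higher and 1 lower, with a median of 0.95, and Spon1 was 6.74-fold higher (5.60 to 8.16). Of 13 genes of matrix degradation, 2 were higher and 1 lower, with Fap, a membrane protease, 3.80-fold higher (2.76 to 5.29). Of 9 collagen receptors, 3 were higher and 0 lower, with Itga11, the chain of a collagen-binding integrin, 8.26-fold higher (5.41 to 13.1). The background for each of these counts is the 5.06% and 2.6% given above.

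In Pkhd1-list against hepatocyte-gated nuclei, where 18.8% of all genes were higher, the same lists had 7 of 17, 2 of 8, 1 of 3, 7 of 12, 11 of 21, 5 of 13 and 3 of 9 higher, in the order above. Lower were 1, 1, 1, 0, 0, 0 and 1. The median log2 ratios of the lists were 0.55, 0.59, 0.59, 1.45, 1.13, 0.50 and 0.82, beside 0.24 over all genes. Ddr1, a collagen receptor kinase, was 28.4-fold higher (21.8 to 37.6), Efemp1 26.1-fold (19.9 to 34.9), Timp3, an inhibitor of matrix proteases, 13.5-fold (12.3 to 14.9) and P4ha2 10.4-fold (8.52 to 12.8). The collagen receptor chain Itga1 was 2.67-fold lower (2.48 to 2.89) and Bmp1, which removes the C-terminal propeptide of procollagen, 2.56-fold lower (2.41 to 2.71).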

How the data were processed

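The authors deposited a filtered and an unfiltered matrix of UMI counts, without normalization. Cell Ranger 5.0 and the mm10 build are named in the submitters' processing notes. The sources used here do not state how both samples were combined. Nuclei were prepared with a 3′ droplet kit, per the labels' protocols. The members, the marker lists and the pathway lists were chosen with earlier results of these data known, and the tumour and hepatocyte marker lists came from such results.

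Barcodes were kept with at least 500 UMIs, 300 genes and at most 5% mitochondrial UMIs, which removed 758. The free-RNA profile came from 49929 uncalled barcodes with 500 to 849 UMIs. A nucleus passed a marker list at an upper-tail Poisson probability of at most 0.0001 over that profile with at least 3 distinct markers, and went to its best list. It was left out as mixed when a list of another lineage came within a factor of 2 on the log scale. There were 11 fixed lists, including ductal, macrophage and lymphocyte lists. The ductal gate held 27 nuclei and was not described. Planned comparisons with the fibroblast gate could not be made, since it held 2 nuclei, and the Itgbl1 set of 10 genes took its place.

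Counts were summed per group and scaled to CPM. Levels carry exact Poisson intervals, folds exact intervals for a ratio of counts, and shares exact Clopper-Pearson intervals, all at 95%. A share of 0 allows up to 3 counts. Intervals and floors cover counting error only, not differences between animals. The share of free RNA per group was set by the least ratio over abundant genes outside all lists. Background shares were taken over 19683 genes with at least 20 UMIs. Members with at least 100 UMIs over the 7 groups, 33 in number, are given in full, and the other 13 by range or count, with values where they are named. From each pathway list at most 3 genes with the largest ratio are named. Gene positions are from GENCODE vM21 on mm10.

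Scrublet, in scanpy 1.11.5, called 0 doublets over all kept barcodes, which means that it did not work at its automatic threshold, and 323 among the 9632 with at least 2000 UMIs. Doublets were treated by leaving out mixed nuclei, and the 323 were left out as an alternative. Python 3.11.15, numpy 2.4.6, scipy 1.17.1 and pandas 2.3.3 were used, with edgeR 4.0.16 in R 4.3.3 for TMM factors only. The fold and interval steps were tested on simulated data. Other settings were tried for the free-RNA profile, the gate thresholds, the filters, the doublets, the pseudocount and the scaling, and 1, which leaves out pericyte- and stellate-gated nuclei passing the Itgbl1 list, was chosen after seeing the data, as was the Itgbl1 set itself.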

Additional observations from a re-analysis of the deposited data

How the results depend on the processing

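Counts of members were recomputed under 13 other settings and 1 chosen after seeing the data, which left out pericyte- and stellate-gated nuclei that passed the Itgbl1 list. Of 296 values for 22 counts, 265 stayed within 1.5 times the count reported. In the Itgbl1 set against pericyte-gated nuclei, 8 were higher (in place of 4) and 3 lower (in place of 6) without those nuclei, and 3 lower with a pseudocount of 10 CPM. Endothelial-gated against stellate-gated nuclei had 4 higher with free RNA subtracted and 5 without those nuclei, in place of 2. The single member higher in mesothelial-gated nuclei became 0 with 2 distinct markers, TMM factors, the profile of barcodes with 1 to 100 UMIs, a gate threshold of 1e-06, 1% mitochondrial UMIs or a pseudocount of 10, and 2 with 4 markers or a threshold of 0.01. Pkhd1-list against hepatocyte-gated nuclei had 6 higher under TMM factors, and 2 higher and 2 lower with a pseudocount of 10, in place of 11 and 6. Between the tumour lists, 3 were higher with any doubly passing nucleus left out and 0 with the profile of 1 to 100 UMIs, a threshold of 0.01 or a pseudocount of 10, in place of 1. There, 2 were lower with 2 markers or a pseudocount of 10, in place of 4. In pericyte-gated against stellate-gated nuclei, 1 was lower at 1% mitochondrial UMIs, in place of 2. The members highest in Ccnd3-list nuclei, 0 in the report, were 2 without Scrublet calls and 1 with doubly passing nuclei left out, with 2 or 4 markers, with free RNA subtracted or at thresholds of 0.01 and 1e-06. Those highest in Pkhd1-list nuclei were 5 at 1% mitochondrial UMIs, in place of 2. The causes were not tested. No paired analysis was possible because no barcode is tied to a sample, which also kept single samples from being left out. Depth limits the mesothelial and pericyte gates most, where 3 counts stand for 6.06 and 4.44 CPM.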
